A study of Mus musculus with 6 samples.

Results

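The genes described here encode the proteins of the small (40S) subunit of the cytosolic ribosome, measured in mouse retinal ganglion cells (RGCs) of 3 ages. Members were chosen by symbol alone: symbols of the form Rps plus a number, with an optional a, x, y or l, and Rpsa, Fau and Gnb2l1, without pseudogene symbols. This gave 34 of the 17027 genes of the deposited table, and 180 of its 50829 isoforms. By position in the ribosome 15 belong to the head of the subunit and 17 to its body and platform, and Rps27l and Rps4l are paralogs. Rps4l has no isoform annotated as coding in these data. All 34 reached the mean of 1 FPKM over the 6 libraries that was needed for testing. Rps3a, a protein of the body, is listed under the symbol Rps3a1, which the rule does not reach. It had 389 and 409 FPKM at embryonic day 18 (E18), 286 and 305 FPKM at postnatal day 5 (P5), and 124 and 123 FPKM in Adult, and is not counted below.

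RGCs are the neurons whose axons form the optic nerve, and the series as a whole concerns ribosomal proteins that decline during their development. Wild-type (WT) mice of the strain C57/6NCrl were used at E18, at P5 and at 8 weeks (Adult), each with 2 libraries. Cells were captured on antibody to Thy1 after macrophages had been removed; the protocol of the samples also names removal of amacrine cells. PolyA-selected RNA was sequenced as paired reads of 100 bases. Whether the paired libraries stem from different animals is not stated in the labels, so p-values reflect no more than the spread between these samples, which may be technical. FPKM (fragments relative to transcript length and to all mapped fragments) carry no read counts, so depth and counting error are unknown.

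The Adult libraries differed from the others in more than age. The summed FPKM of 13 RGC markers was 2747 and 3220 at E18, then 3370 and 3087 at P5, then 497 and 306 in Adult. Of these markers 12 of 13 were called lower in Adult than at P5, and Rbpms had 15.9 and 7.45 FPKM in Adult against 177 and 172 FPKM at P5. The summed FPKM of 11 rod photoreceptor markers was 5.82 to 12.1 in the younger libraries and 5696 and 695 in Adult replicates 1 and 2, and all 8 bipolar, all 6 tested amacrine and all 6 tested Mueller glia and astrocyte markers were called higher in Adult than at P5. E18 replicate 1 stood apart from E18 replicate 2 in the summed FPKM of 8 retinal progenitor markers (106 and 8.32) and of 12 cell cycle genes (148 and 77.7). Of 7 macrophage markers 1 is in the table, at 0 to 1.25 FPKM. These markers move with every Adult comparison below, and their part in the results was not tested. In bulk RNA, fewer cells of a type and less RNA per cell cannot be told apart.

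The small subunit holds the 18S rRNA and the decoding site, takes up the mRNA and the initiation factors, and scans for the start codon; its proteins are made in near-equal numbers because each ribosome carries one copy of each. Many mammalian ribosomal protein mRNAs begin with a C followed by a run of pyrimidines, the terminal oligopyrimidine motif through which mTOR controls their translation. In neurons, ribosomes in the axon and growth cone translate mRNAs locally, and ribosome supply is linked to growth.

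The starts of the genes are shown because their first letters, which some members share, are a feature that the selection by symbol did not use. RefSeq promoters of GRCm38.p6 were matched for 25 of the 34 members, and the other 9 have no entry. In the windows below, 10 bases lie before the annotated start and 20 from it onwards. Capitals mark a run of C and T that begins with a C at the start base. Fau, Gnb2l1 (the scaffold protein Rack1), Rps10, Rps15a, Rps18, Rps21, Rps27 and Rps6 carry such a run of at least 5 letters, and Rps19, Rps26 and the paralog Rps27l are shown for contrast. The starts are the RefSeq starts nearest to the leading transcript. The windows of Rps10, Rps15a, Rps18, Rps6, Rps19 and Rps26 do not hold the annotated start of that transcript. The Rps26 and Rps27l windows also have a run of C and T shortly after the start base, so their contrast depends on the RefSeq start.
Fau, chr19:6057937-6057966, plus strand: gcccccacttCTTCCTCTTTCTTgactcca
Gnb2l1, chr11:48800350-48800379, plus strand: gccgctctttCTTTTTCTCCacagggtcgt
Rps10, chr17:27635225-27635254, minus strand: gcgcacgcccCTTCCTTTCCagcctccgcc
Rps15a, chr7:118116128-118116157, minus strand: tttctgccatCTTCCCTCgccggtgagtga
Rps18, chr17:33955646-33955675, minus strand: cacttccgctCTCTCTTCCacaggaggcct
Rps21, chr2:180257369-180257398, plus strand: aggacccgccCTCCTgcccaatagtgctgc
Rps27, chr3:90213629-90213658, minus strand: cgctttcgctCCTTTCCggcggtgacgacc
Rps6, chr4:86857348-86857377, minus strand: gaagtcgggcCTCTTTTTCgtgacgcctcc
Rps19, chr7:24884582-24884611, plus strand: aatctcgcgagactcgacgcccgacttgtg
Rps26, chr10:128626487-128626516, minus strand: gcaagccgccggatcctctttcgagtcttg
Rps27l, chr9:66946076-66946105, plus strand: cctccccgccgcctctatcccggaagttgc

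A C at the start base followed by 4 letters of C or T stood at 8 of the 25 matched members (32.0%) and at 2.5% of all 32851 RefSeq promoters. In the 300 bases around the start, read on both strands, CCGGAAG (the core letters of ETS factor motifs) was found in 10 of 25 members (40.0%) against 8.9% of all promoters. AAGATGG, the core letters of the YY1 motif, was found in 6 of 25 (24.0%) against 6.3%. These are matches of letters at annotated starts and not measured starts or sites. The 8 members with the pyrimidine run, grouped after their values had been seen, had a median log2 change of -0.60 between P5 and E18 and -1.12 between Adult and P5. The 17 matched members without it had medians of -0.49 and -1.43, so neither group was lower in both comparisons.

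Levels per length differed among the members more than they differed between replicates. At E18 the highest was Rps27, which encodes a zinc-finger protein of the body, with 825 and 824 FPKM in replicates 1 and 2. Rps29, a small zinc-finger protein of the head, followed with 790 and 688 FPKM, and Rps24, a body protein needed for maturation of the 18S rRNA, with 645 and 674 FPKM. The order is loose, since the libraries of neighbours overlapped in 18 of 33 neighbouring pairs at E18, 21 of 33 at P5 and 25 of 33 in Adult. Rps27 led at E18 and P5, Rps29 in Adult, and Rps27l was last at all 3 ages. Rps9, a protein beside the mRNA entry channel, had 553 and 540 FPKM, and Rps25, a head protein used in initiation at viral internal ribosome entry sites, had 537 and 516 FPKM. The lowest core member was Rps10, at 162 and 153 FPKM. At E18 and P5 the paralogs lay below all core members, with Rps4l at 63.4 and 66.5 FPKM and Rps27l at 47.6 and 37.0 FPKM at E18, whereas in Adult the libraries of Rps4l (37.0 and 46.5 FPKM) overlapped those of Rps20 (47.4 and 35.5 FPKM). Across the 32 core members Spearman's rho of the length of the leading isoform with mean FPKM was -0.38 at E18, -0.34 at P5 and -0.32 in Adult, as a description across genes that share libraries. Up to 98.7% (Rps27) of the 31-base stretches of a member's leading isoform also occur in transcripts of other genes. For Rps27, 65.1% occur in annotated pseudogenes. How such reads were divided is not given in the sources used here.

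**Figure D1:**
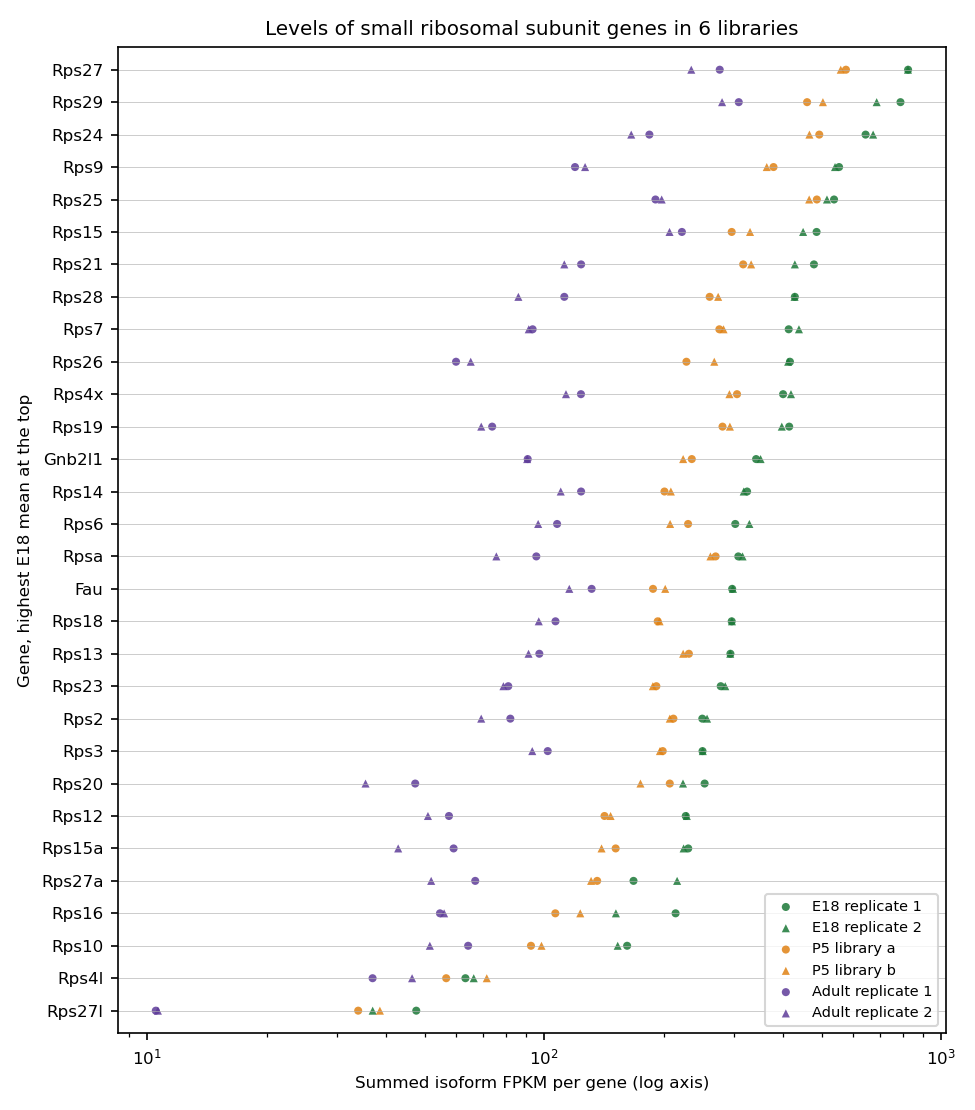
Summed isoform FPKM of 30 of the 34 genes (log axis) in each of the 6 libraries, with circles for replicate 1 or library a and triangles for replicate 2 or library b. Adult values lie left of both younger ages for every gene shown, and P5 values lie left of E18 values for all but Rps4l and Rps27l.

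The summed level of the small subunit genes was lower at each later age, and so was that of the large subunit genes. The 34 genes summed to 12378 and 12195 FPKM at E18, then 8583 and 8568 FPKM at P5, then 3841 and 3472 FPKM in Adult. The 3 ages did not overlap, and the sum was 1.43-fold lower at P5 than at E18, 2.35-fold lower in Adult than at P5 and 3.36-fold lower in Adult than at E18. With each library scaled to the same total (TPM) these folds were 1.31, 3.95 and 5.16, and as a share of the FPKM of protein-coding genes 1.39, 1.87 and 2.61. The members held 1.734% and 1.765% of all FPKM in P5 libraries a and b, against 0.4798% and 0.4063% in Adult. Of the protein-coding FPKM they held 2.281% and 2.342% in these P5 libraries, against 1.262% and 1.207% in Adult. Protein-coding genes thus held a smaller part of all FPKM in Adult than at P5, so these scalings gave different folds. The source of that difference was not tested. The small subunit held 45.05% and 44.5% of the FPKM of both subunits at E18, then 43.9% and 43.96% at P5, then 44.1% and 43.8% in Adult. That share stayed within 2 percentage points over the 6 libraries, while the summed levels did not overlap between ages.

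**Figure D2:**
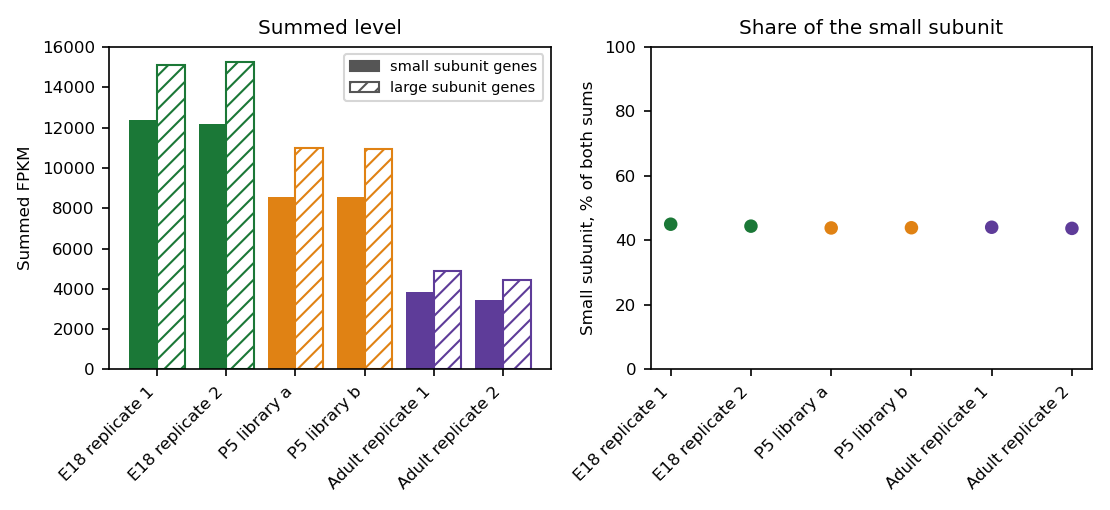
Left, summed FPKM of the small subunit genes (filled bars) and of 46 large subunit genes (hatched bars) in each library, in the order E18, P5, Adult. Right, the small subunit's share of both sums in percent, which lies between 43.76 and 45.05 in all 6 libraries.

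Between P5 and E18 most small subunit genes fell, by 26.8% to 40.0% among those called. Of the 34 members 22 were called lower at P5, 0 higher and 12 were not called, where 4.95% of the 14390 tested genes were called lower and 5.52% higher (limma on log2(FPKM + 1), adjusted p under 0.05 over all tested genes). At an unadjusted p under 0.05, 29 were lower and 0 higher, and the share of all genes at that threshold was not counted. The median log2 change of the members was -0.56, against -0.03 for all genes. The log2 change was also negative in 9 of 9 tested cell cycle genes (median -0.61, 1 called lower) and in 8 of 8 retinal progenitor markers (median -1.13, 0 called). The 12 cell cycle genes summed to 53.5 and 61.7 FPKM at P5 against 148 and 77.7 FPKM at E18, and the progenitor markers to 7.36 and 7.55 FPKM at P5 against 106 and 8.32 FPKM at E18. The part of these markers in the result was not tested. Libraries of the ages did not overlap in 32 of 34 members, P5 being lower, and 34.2% of all genes showed the same. With 1 E18 or P5 library left out, that age kept 1 library, and nearly all calls among the members were lost. Fewer of all tested genes were called lower in each of these fits too. The members' median log2 change lay between -0.56 and -0.54 in these fits. Of the members, 11 were called after rescaling to TPM, 11 after quantile normalization and 12 without the variance trend. Those settings called 466, 508 and 542 of all 14390 tested genes lower, in that order.

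In the head, 9 of 15 members were called lower at P5, with a median log2 change of -0.59. Gnb2l1, the Rack1 scaffold on the back of the head that docks protein kinase C, had 235 and 224 FPKM at P5 against 342 and 351 FPKM at E18 (log2 change -0.59, SE 0.09, limma adjusted p = 0.0178). Rps12, a protein of the beak, had 142 and 147 FPKM at P5 against 227 and 229 FPKM at E18 (log2 change -0.66, SE 0.10, adjusted p = 0.0187). Rps29 fell to 459 and 504 FPKM at P5, against 790 and 688 FPKM at E18 (log2 change -0.61, SE 0.12, adjusted p = 0.0299). These genes had both P5 libraries below both E18 libraries. Rps25 had the smallest change of the core members: 486 and 465 FPKM at P5 against 537 and 516 FPKM at E18 (log2 change -0.15, 95% interval -0.36 to 0.07, adjusted p = 0.329).

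In the body and platform, 13 of 17 were called lower at P5, with a median log2 change of -0.56. Rps26, a platform protein that contacts mRNA upstream of the start codon, had the largest change: 228 and 268 FPKM at P5 against 416 and 412 FPKM at E18 (log2 change -0.74, 1.67-fold lower, SE 0.11, limma adjusted p = 0.0190). Rps7, a body protein that can bind the p53 ligase Mdm2 when free of the ribosome, had 276 and 283 FPKM at P5 against 413 and 438 FPKM at E18 (log2 change -0.60, SE 0.09, adjusted p = 0.0177). Libraries of the 2 ages did not overlap for these genes. Rps23, a protein of the decoding centre, had 192 and 188 FPKM at P5 against 278 and 286 FPKM at E18 (log2 change -0.57, SE 0.09, adjusted p = 0.0189). Rps27 fell to 576 and 558 FPKM at P5, against 825 and 824 FPKM at E18 (log2 change -0.54, SE 0.11, adjusted p = 0.0343), and Rps24 fell to 493 and 466 FPKM, against 645 and 674 FPKM (log2 change -0.46, SE 0.10, adjusted p = 0.0397). The body members not called were Rps13, Rps15a, Rps2 and Rpsa, with log2 changes of -0.37, -0.64, -0.28 and -0.23. Rpsa, which is also known as a laminin receptor precursor, had 270 and 262 FPKM at P5 against 308 and 316 FPKM at E18.

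**Figure D3:**
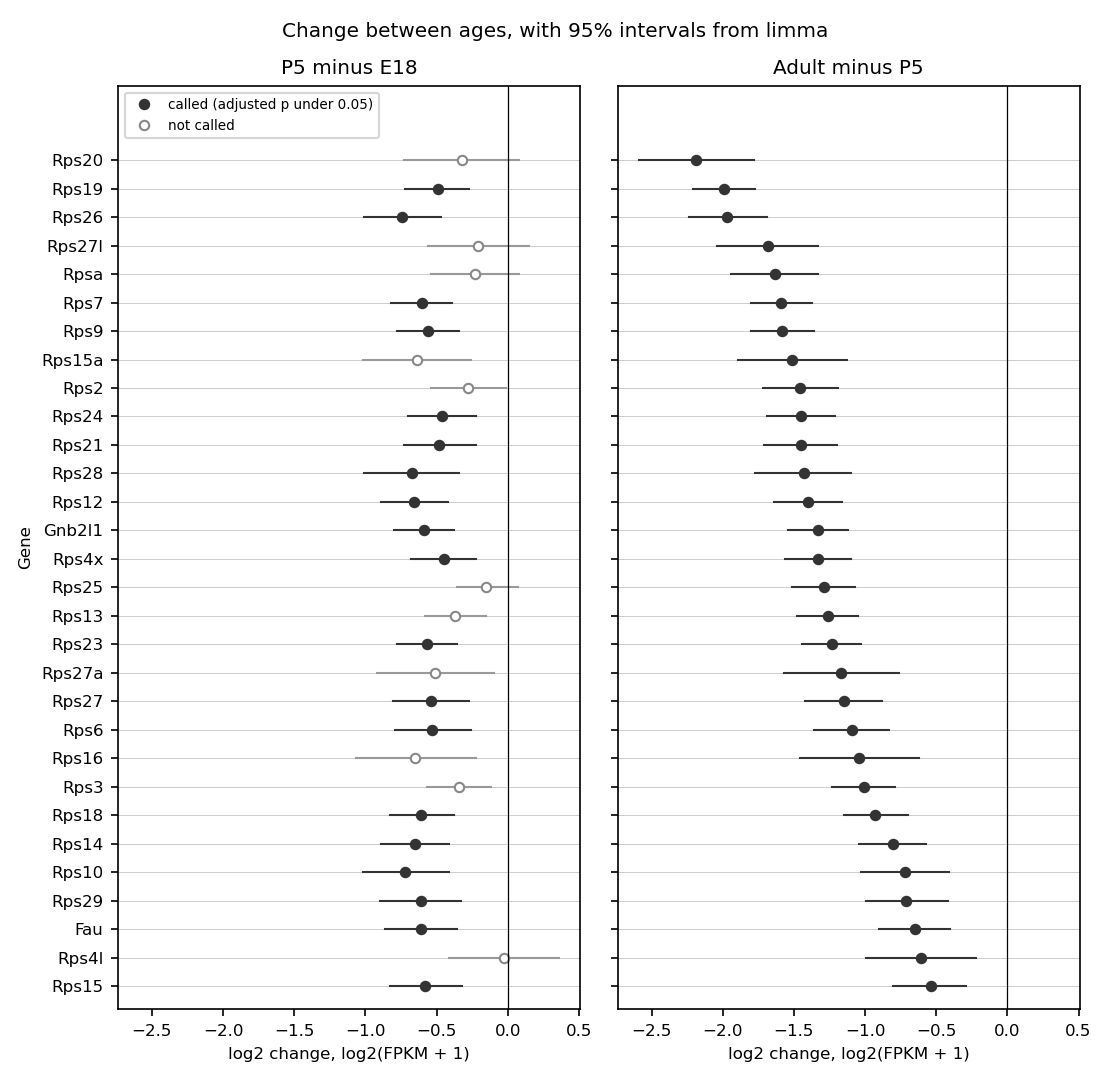
Log2 change of 30 of the 34 genes, each with its 95% interval from limma, P5 minus E18 on the left and Adult minus P5 on the right; filled points were called at an adjusted p under 0.05. All 30 points lie below 0 in both panels, between -0.74 and -0.03 on the left and between -2.19 and -0.54 on the right.

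Between Adult and P5 every member was called lower, by unequal amounts. All 34 of 34 were called lower in Adult and 0 higher, where 33.7% of all tested genes were called lower and 26.2% higher (limma, adjusted p under 0.05). Both Adult libraries lay below both P5 libraries in all 34, where 43.1% of all genes did so. The median log2 change was -1.28, against -0.07 for all genes, and single members ran between -2.19 and -0.54. Rescaling to TPM gave a median of -2.03 for the members and -0.76 for all genes, and rescaling to protein-coding genes gave -0.95 and 0.20. Relative to all genes the members' median was -1.20 as deposited, -1.27 in TPM, -1.16 on protein-coding genes and -0.87 after quantile normalization.

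Among the head proteins the largest and the smallest changes stood side by side. Rps20, a head protein that neighbours Rps3, had 47.4 and 35.5 FPKM in Adult against 207 and 175 FPKM at P5 (log2 change -2.19, 4.61-fold lower, SE 0.17, limma adjusted p = 0.000151). Rps19, which is needed for maturation of the 18S rRNA and whose human counterpart is the gene most often mutated in Diamond-Blackfan anaemia, had 74.0 and 69.4 FPKM in Adult against 281 and 294 FPKM at P5 (log2 change -1.99, 4.01-fold lower, SE 0.09, adjusted p = 4.03e-05). Adult and P5 libraries were far apart for both. A 582-base form annotated with a retained intron held 88.9% and 85.1% of Rps20 at P5 and 74.5% and 72.4% in Adult. That form had a log2 change of -2.42 (SE 0.19). The 3706-base coding form of Rps20 had 8.55 and 7.17 FPKM in Adult against 20.2 and 23.0 FPKM at P5 (log2 change -1.35, SE 0.15). The change of Rps20 as a gene therefore follows mostly a form not annotated as coding. Most of Rps19 was an unannotated 514-base form, nearest to a transcript annotated for nonsense-mediated decay (log2 change -2.0, SE 0.13). The 774-base coding form of Rps19 had 8.60 and 8.50 FPKM in Adult against 98.9 and 78.3 FPKM at P5 (log2 change -3.22, SE 0.15). A 593-base form annotated for nonsense-mediated decay was not called (log2 change 0.37). The change of Rps19 as a gene mixes these forms. Gnb2l1 had 90.9 and 90.6 FPKM in Adult against 235 and 224 FPKM at P5 (log2 change -1.33, SE 0.09, adjusted p = 9.88e-05). Rps25 had 191 and 198 FPKM in Adult against 486 and 465 FPKM at P5 (log2 change -1.29, SE 0.09, adjusted p = 0.00012). Rps29 was less reduced, at 309 and 281 FPKM in Adult against 459 and 504 FPKM at P5 (log2 change -0.71, SE 0.12, adjusted p = 0.00273). Rps15, a head protein needed for export of the small subunit from the nucleus, had the smallest change of all members: 222 and 207 FPKM in Adult against 297 and 330 FPKM at P5 (log2 change -0.54, SE 0.10, adjusted p = 0.0051). The Rps15 libraries did not overlap, but the call was lost with scaling to protein-coding genes (log2 change -0.22, adjusted p = 0.143) and with quantile normalization (-0.13, adjusted p = 0.443).

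In the body and platform, Rps26 had 60.0 and 65.3 FPKM in Adult against 228 and 268 FPKM at P5 (log2 change -1.97, 3.96-fold lower, SE 0.11, limma adjusted p = 6.9e-05). Rps7 had 93.5 and 91.5 FPKM in Adult against 276 and 283 FPKM at P5 (log2 change -1.59, SE 0.09, adjusted p = 6.6e-05), and Rps9 had 120 and 127 FPKM against 378 and 364 FPKM (log2 change -1.58, SE 0.09, adjusted p = 6.9e-05). Both Adult libraries lay far below both P5 libraries for these genes. Rps24 had 184 and 166 FPKM in Adult against 493 and 466 FPKM at P5 (log2 change -1.45, SE 0.10, adjusted p = 0.000116). Rps27, the gene with the highest level at each younger age, had 277 and 235 FPKM in Adult against 576 and 558 FPKM at P5 (log2 change -1.15, SE 0.11, adjusted p = 0.000324), and in Adult stood below Rps29. Fau, whose product is a ubiquitin-like protein fused to the ribosomal protein eS30, changed least in the body: 132 and 116 FPKM in Adult against 188 and 202 FPKM at P5 (log2 change -0.65, 1.58-fold lower, SE 0.10, adjusted p = 0.00227). Fau was not called after quantile normalization (log2 change -0.26, adjusted p = 0.101), and neither was Rps10 of the head (log2 change -0.38, adjusted p = 0.0545). Rps6, the substrate of the S6 kinases, had 108 and 96.6 FPKM in Adult against 230 and 208 FPKM at P5 (log2 change -1.09).

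The remaining head proteins lay between these extremes. Rps3, which lines the mRNA entry and also acts in DNA repair, had 251 and 251 FPKM at E18, then 199 and 196 FPKM at P5, then 102 and 93.3 FPKM in Adult. Its P5 change was not called (log2 change -0.34, limma adjusted p = 0.0648), and its Adult level was 2.02-fold below P5. Rps10, which contacts Rps3 and is a substrate of ubiquitin ligases on stalled ribosomes, had 162 and 153 FPKM at E18, then 92.7 and 98.5 FPKM at P5, then 64.4 and 51.5 FPKM in Adult. It changed by the same log2 amount, -0.72, in both steps and was called in each as deposited (adjusted p = 0.0257 for P5 against E18 and 0.00359 for Adult against P5). Rps18, at the crown of the head, had 297 and 297 FPKM at E18, then 193 and 195 FPKM at P5, then 107 and 96.9 FPKM in Adult. Rps28, close to the mRNA exit, had 428 and 427 FPKM at E18, then 261 and 274 FPKM at P5, then 112 and 86.1 FPKM in Adult, and was called lower at each step (log2 changes -0.67 and -1.43). Rps16 and Rps27a had E18 replicates far apart, at 214 and 152 FPKM and at 168 and 216 FPKM. Rps16 had 107 and 123 FPKM at P5, and Rps27a, a fusion of ubiquitin with a ribosomal protein, had 136 and 131 FPKM, both below E18 in each library but not called (adjusted p = 0.0666 and 0.109). In Adult Rps16 had 54.7 and 55.99 FPKM and Rps27a 67.1 and 51.9 FPKM, 2.08-fold and 2.25-fold below P5.

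The remaining proteins of the body and platform also had lower levels at each later age. Rps14, a platform protein beside the mRNA exit, had 324 and 318 FPKM at E18, then 201 and 209 FPKM at P5, then 124 and 110 FPKM in Adult. Its Adult change was among the smaller ones (log2 change -0.80, limma adjusted p = 0.000814). Rps21, a small platform protein, had 478 and 428 FPKM at E18, then 317 and 332 FPKM at P5, then 124 and 112 FPKM in Adult (log2 change of Adult against P5 -1.45, adjusted p = 0.000134). Rps13, a platform protein that faces the large subunit, had 295 and 294 FPKM at E18, then 232 and 224 FPKM at P5, then 97.3 and 91.4 FPKM in Adult. It narrowly missed the call at P5 (adjusted p = 0.0513) and was 2.41-fold lower in Adult than at P5. Rps2 had 250 and 257 FPKM at E18, then 212 and 207 FPKM at P5, then 82.2 and 69.4 FPKM in Adult. Rpsa and Rps2, which changed little at P5 (log2 changes -0.23 and -0.28, neither called), had log2 changes of -1.63 and -1.46 between Adult and P5. Most of their change thus lay between P5 and Adult. The median of all members also changed more in that step (-1.28) than between P5 and E18 (-0.56). Rps23 had 81.2 and 78.97 FPKM in Adult (log2 change against P5 -1.23) and Rps12 of the head 57.6 and 50.98 FPKM (log2 change -1.40).

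In GRCm38 the leading transcripts of the members with the largest and smallest Adult changes lie at chr4:3834473-3835488 on the minus strand (Rps20), chr7:24884633-24889806 on the plus strand (Rps19), chr10:128624534-128626424 on the minus strand (Rps26), chr10:80292453-80294114 on the plus strand (Rps15) and chr19:6057943-6059516 on the plus strand (Fau). Of the 31-base stretches of these transcripts, 56.2% (Rps20), 57.4% (Rps19), 49.6% (Rps26), 63.4% (Rps15) and 77.8% (Fau) also occur in other genes. The Rps19 position and percentage are those of an annotated 593-base transcript. It is the one nearest to the unannotated 514-base form that held most of Rps19. Across the 32 core members Spearman's rho of that percentage with the log2 change of Adult against P5 was 0.11, given as a description.

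Between Adult and E18, which share their libraries with the comparisons above, all 34 members were called lower and 0 higher (limma, adjusted p under 0.05), where 34.4% of all tested genes were called lower and 25.3% higher. All 34 had both Adult libraries below both E18 libraries, against 47.0% of all genes. The median log2 change was -1.71, with -0.11 for all genes. Rps26 had 60.0 and 65.3 FPKM in Adult against 416 and 412 FPKM at E18, a 6.60-fold lower level (log2 change -2.70, SE 0.11, adjusted p = 2.33e-05). Rps20 was 5.76-fold (log2 change -2.51, SE 0.17, adjusted p = 7.91e-05) and Rps19 5.65-fold lower (log2 change -2.48, SE 0.09, adjusted p = 1.62e-05) in Adult than at E18, whereas Rps15 was 2.18-fold lower (log2 change -1.12, SE 0.10, adjusted p = 0.00026) and Fau 2.41-fold lower (log2 change -1.26, SE 0.10, adjusted p = 0.000157). Other genes of this comparison with small p were Rps7 (log2 change -2.19), Rps9 (-2.14) and Gnb2l1 (-1.92), each with an SE of 0.09 and limma adjusted p of 2.16e-05, 2.42e-05 and 2.76e-05. Among Rps24, Rps25, Rps27 and Rps29, which have high levels, Rps24 changed most (log2 change -1.91, SE 0.10, adjusted p = 4.13e-05), followed by Rps27 (-1.69, SE 0.11, adjusted p = 7.51e-05), Rps25 (-1.43, SE 0.09, adjusted p = 6.7e-05) and Rps29 (-1.32, SE 0.12, adjusted p = 0.000211).

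The paralogs were called lower in Adult, and neither was called between P5 and E18; their difference from the core members was not tested. Rps27l, a close paralog of Rps27 known as a p53 target, had 47.6 and 37.0 FPKM at E18, then 34.0 and 38.6 FPKM at P5, then 10.5 and 10.7 FPKM in Adult. Its P5 and E18 libraries overlapped (log2 change -0.21, 95% interval -0.56 to 0.15, limma adjusted p = 0.394). Its Adult libraries were 3.43-fold below P5 (log2 change -1.68, SE 0.15, adjusted p = 0.000235) and 4.0-fold below E18 (log2 change -1.89). Rps4l, an autosomal relative of the X-linked Rps4x, is listed only as a 943-base processed transcript, not annotated as coding. Rps4l had 63.4 and 66.5 FPKM at E18, then 56.7 and 71.7 FPKM at P5, then 37.0 and 46.5 FPKM in Adult. It overlapped between P5 and E18 (log2 change -0.03, interval -0.41 to 0.36, adjusted p = 0.943). Rps4l was called lower in Adult than at P5 (log2 change -0.61, SE 0.16, adjusted p = 0.0169) and than at E18 (log2 change -0.63, SE 0.16, adjusted p = 0.0141). Those calls were lost with scaling to protein-coding genes (adjusted p = 0.204 and 0.227), with quantile normalization (0.173 and 0.141) and without Adult replicate 1 (0.0919 and 0.0798). Against P5 the call was also lost without P5 library b (0.081), and against E18 without E18 replicate 1 (0.0588) or E18 replicate 2 (0.0805). Rps4x itself, a body protein, had 400 and 418 FPKM at E18, then 306 and 293 FPKM at P5, then 124 and 114 FPKM in Adult.

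The changes differed in size between members, and the make-up of the subunit's summed FPKM differed between ages. The share of each gene in the summed FPKM of the 34 does not depend on scaling between libraries, and is given here as a description with no test. Between Adult and E18, 13 members had a lower share in both Adult libraries than in both E18 libraries, 13 had a higher share and 8 overlapped. Between P5 and E18 the corresponding numbers were 15 lower, 7 higher and 12 overlapping. Rps26 held 1.56% and 1.88% of the sum in Adult against 3.36% and 3.38% at E18. Rps20 held 1.23% and 1.02% in Adult against 2.05% and 1.84% at E18, and Rps19 held 1.93% and 2.0% against 3.35% and 3.25%. The ratios of mean Adult to mean E18 share were 0.511, 0.581 and 0.595 for these genes. These shares count all forms of a gene, also those not annotated as coding. The retained-intron forms of Rps26 (596 bases) and Rps20 (582 bases) had log2 changes of -3.62 and -2.72 between Adult and E18. Their coding forms (681 and 3706 bases) had -2.2 and -1.74. In Rps19 the 774-base coding form had -3.51 and an unannotated 514-base form -2.57. On the other side, Rps15 held 5.79% and 5.96% in Adult against 3.92% and 3.68% at E18, Fau 3.43% and 3.33% against 2.40% and 2.45%, and Rps29 8.05% and 8.08% against 6.38% and 5.64%. Rps4l held 0.963% and 1.34% in Adult, against 0.512% and 0.545% at E18. Among core members the largest gain in share between P5 and E18 was that of Rps25, with 5.66% and 5.43% at P5 against 4.34% and 4.23% at E18, a ratio of 1.29. The SD of log2 FPKM over the core members was 0.583 and 0.584 at E18, then 0.617 and 0.611 at P5, then 0.671 and 0.703 in Adult, so the spread of levels among members was widest in the Adult libraries.

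**Figure D4:**
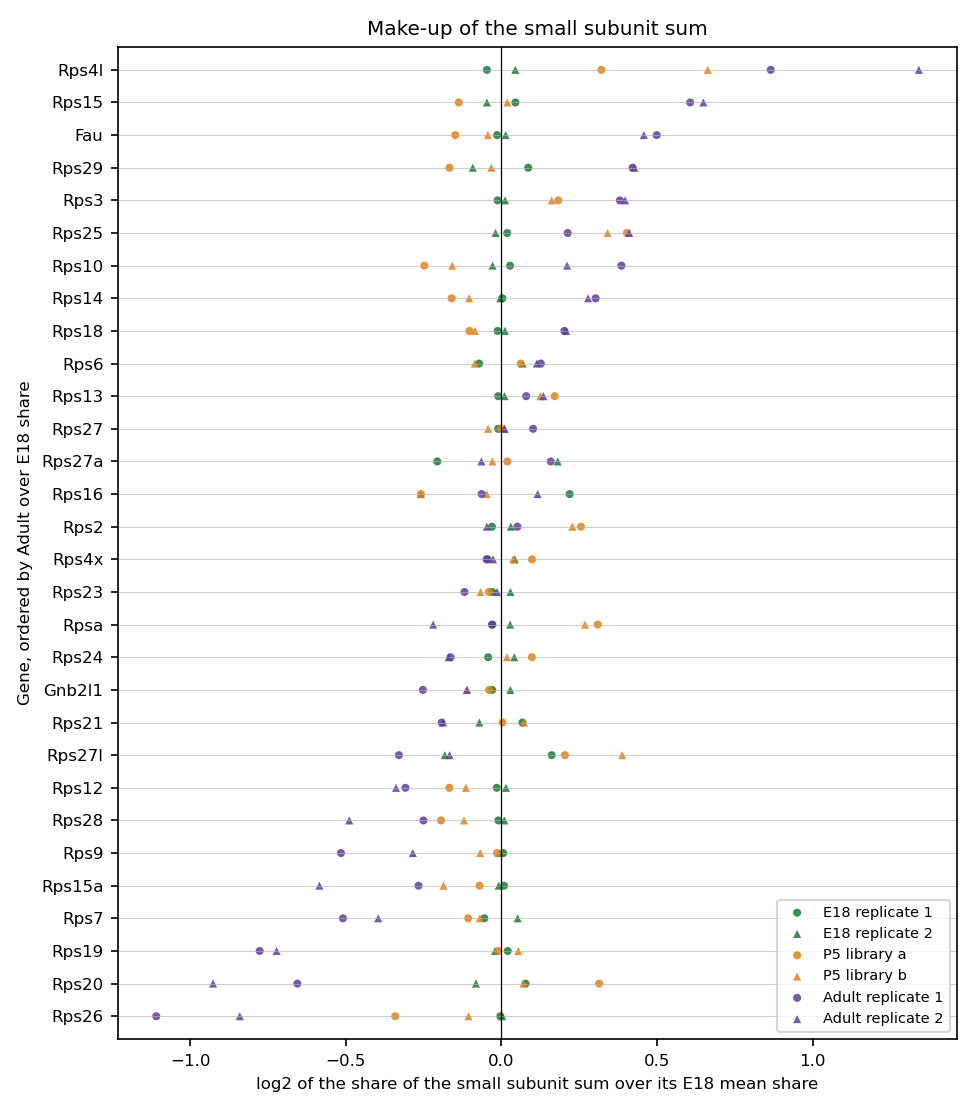
Share of each of 30 genes in the summed FPKM of the 34 genes, as log2 of the ratio to each gene's mean E18 share, in each library (circles replicate 1 or library a, triangles replicate 2 or library b). Genes are ordered by the ratio of mean Adult to mean E18 share, 2.18 for Rps4l at the top and 0.511 for Rps26 at the bottom.

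The isoforms of a gene did not always move alike. Of the 180 isoforms 161 reached a mean of 1 FPKM. At P5 9 were called lower than at E18 and 0 higher, where 0.824% of the 34941 tested isoforms were called lower and 0.804% higher. At an unadjusted p under 0.05, 77 were lower and 3 higher, and the share of all isoforms at that threshold was not counted. The calls did not hold with any library left out. In Adult 68 were called lower and 4 higher than at P5, where 24.1% and 19.2% of all isoforms were, and 96 were called lower and 2 higher than at E18, where 26.8% and 17.9% were (limma). With a library left out, 55 to 61 were called lower and 3 to 8 higher in Adult than at P5; 8 were higher without Adult replicate 2, 7 without P5 library b and 8 on protein-coding scaling. The isoforms called higher in Adult than at P5 were a 952-base form of Rps3, a 743-base form of Rps25 and 887-base and 2769-base forms of Rps24. The Rps3 form was listed at 0 in all 4 younger libraries and had 13.3 and 9.98 FPKM in Adult, so no fold is given. The Rps25 form was listed at 0 in both P5 libraries. Its Adult level was called lower than that of E18 (log2 change -1.13, limma adjusted p = 0.00668). The 887-base Rps24 form was listed at 0 in P5 library a and had 1.23 FPKM in library b. Neither Rps24 form was called between Adult and E18 (887 bases, adjusted p = 0.225, and 2769 bases, adjusted p = 0.367). Annotated coding transcripts held 85.1% to 87.6% of the members' FPKM in all 6 libraries and transcripts annotated with a retained intron held 6.85% to 8.26%.

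The largest shift in isoform share was in Rps15a, a protein of the body. Its 640-base coding form made up 82.7% and 85.9% of the gene at E18, then 86.0% and 82.8% at P5, then 28.5% and 31.9% in Adult. That form had 16.8 and 13.7 FPKM in Adult against 130 and 116 FPKM at P5 (log2 change -2.93, SE 0.13, limma adjusted p = 0.000158). A 5179-base form annotated as coding had 23.2 and 25.7 FPKM in Adult against 13.6 and 20.7 FPKM at P5 and was not called (log2 change 0.52, adjusted p = 0.0898). The short form thus fell while the long form showed no called change, and Rps15a as a gene, at 59.2 and 42.9 FPKM in Adult against 151 and 140 FPKM at P5, is a mixture of both. A 250-base form adds 16.3 FPKM in Adult replicate 1 and is listed at 0 in Adult replicate 2.

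In Rps26 the balance lay between the 681-base coding form and a 596-base form annotated with a retained intron. The 596-base form had 213 and 183 FPKM at E18, then 161 and 161 FPKM at P5, then 12.4 and 18.5 FPKM in Adult, and was lower in Adult than at P5 (log2 change -3.33, SE 0.19, limma adjusted p = 0.00027). The 681-base form had 198 and 224 FPKM at E18, then 64.3 and 103 FPKM at P5, then 44.9 and 45.2 FPKM in Adult (log2 change of Adult against P5 -0.84, SE 0.22, adjusted p = 0.0272). The coding form made up 47.5% and 54.3% of the gene at E18, then 28.2% and 38.5% at P5, then 74.8% and 69.2% in Adult, with no overlap between ages. In Rps16, a head protein beside the P site, the 518-base form annotated with a retained intron made up 55.5% and 54.9% at E18, then 66.6% and 63.1% at P5, then 39.8% and 28.9% in Adult. In Rps2, a protein at the mRNA entry, the isoforms could not be ordered by age, since the 1094-base form had 172 FPKM in E18 replicate 1 and 71.3 FPKM in E18 replicate 2, and the 998-base form 44.6 and 157 FPKM.

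**Figure D5:**
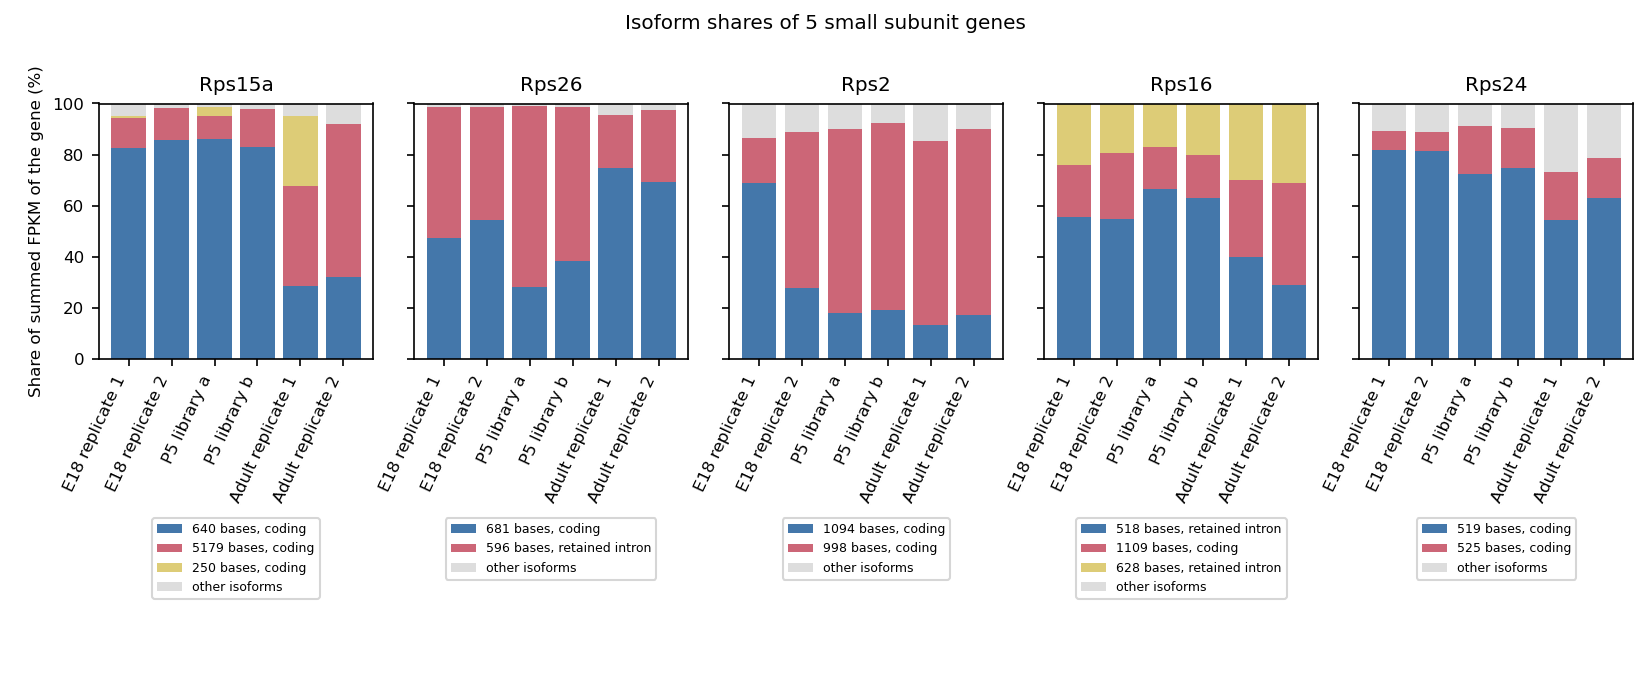
Share of each gene's summed FPKM held by isoforms that reach 10% in at least 1 library, for the 5 genes whose leading isoform differed most between age means, in the library order E18, P5, Adult. The 640-base form of Rps15a lies at 82.7% to 86.0% in the 4 younger libraries and at 28.5% and 31.9% in Adult.

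In Rps24 the isoforms differ by an exon of 18 bases at the end of the coding sequence, and the junctions are shown because their use differed between ages. The exon lies at chr14:24494052-24494069 on the plus strand of GRCm38, within the span of the 519-base transcript (chr14:24490718-24495845), and is exon 5 of 7 in the transcript that holds it. It adds 3 coding bases and then a stop codon of its own, while the form without it stops at the first bases of the next exon. Sequences are from GENCODE transcripts, with the exon in capitals and the flanking exons in lower case.
Rps24 with the exon: aaaaagAAATGAAATACCTAGCAGtgagtg
Rps24 without the exon: gctggcaaaaagtgagtggagatt
The 525-base form with the exon had 47.7 and 49.6 FPKM at E18, then 92.5 and 71.5 FPKM at P5, then 35.0 and 26.0 FPKM in Adult. The 519-base form without it had 527 and 549 FPKM at E18, then 357 and 349 FPKM at P5, then 100.0 and 105 FPKM in Adult. So the shorter form was lower at P5 than at E18 (log2 change -0.61, SE 0.09, limma adjusted p = 0.0445), while the form with the exon had a positive log2 change that was not called (0.73, SE 0.19, adjusted p = 0.109). Over the 2 isoforms with the exon and the 4 that join the neighbouring exons directly, the exon was in 7.82% and 7.79% of the FPKM at E18, then 19.5% and 16.0% at P5, then 23.1% and 18.5% in Adult. Both P5 and both Adult libraries lay above both E18 libraries, and P5 and Adult overlapped. These shares rest on how reads were assigned to forms with and without the 18-base exon and were not tested. The 525-base and 519-base forms differ in length by less than 18 bases, so they also differ outside the exon.

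Genes of the large subunit, of mitochondrial ribosomes and of assembly and initiation were counted in the same fit, where 4.95% of all tested genes were called lower and 5.52% higher at P5 than at E18. Of 46 tested large subunit proteins, 30 were called lower and 0 higher at P5 than at E18 (limma, adjusted p under 0.05; median log2 change -0.47), and all 46 were called lower in Adult than at P5 (median -1.21) and than at E18 (median -1.78). Rpl35 had the smallest p of that list in Adult, at 47.5 ± 2.33 FPKM in Adult against 184 ± 0.122 FPKM at P5 (SD, n = 2; log2 change -1.93). Of 28 tested proteins of the mitochondrial small subunit, 0 were called lower and 1 higher at P5 than at E18, and 14 were called lower and 2 higher in Adult than at P5, where 33.7% and 26.2% of all genes were. The 1 higher at P5 was Mrps31 (15.8 ± 0.134 FPKM at P5 against 9.18 ± 0.204 FPKM at E18; log2 change 0.73, adjusted p = 0.0215). Their median log2 change was 0.09 between P5 and E18 and -0.29 between Adult and P5.

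Of 48 tested assembly factors of the small subunit, 1 was called lower and 1 higher at P5 than at E18, and 22 were called lower and 3 higher in Adult than at P5 (33.7% and 26.2% of all genes). Imp4, a component of the small subunit processome, had 8.52 ± 1.84 FPKM at P5 against 15.3 ± 1.11 FPKM at E18 (log2 change -0.79, limma adjusted p = 0.0371), and Pno1, which works in late maturation of the subunit, had 17.4 ± 1.12 FPKM at P5 against 10.2 ± 0.291 FPKM at E18 (log2 change 0.71, adjusted p = 0.0234; SD, n = 2). Of 21 tested initiation factors that bind the small subunit, 1 was called lower and 0 higher at P5 than at E18, and 17 were called lower and 0 higher in Adult than at P5 (33.7% and 26.2% of all genes). The 1 lower at P5 was Eif1, which guards start codon selection (52.8 ± 0.594 FPKM at P5 against 87.1 ± 0.0327 FPKM at E18; log2 change -0.71, adjusted p = 0.0385). Eif3l, a subunit of the factor that bridges mRNA and the small subunit, had 22.9 ± 0.889 FPKM in Adult against 68.5 ± 1.44 FPKM at P5 (log2 change -1.54, adjusted p = 8.1e-05).

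Of 17 tested S6 kinase and mTOR genes, 1 was called lower and 1 higher at P5 than at E18, and 6 were called lower and 4 higher in Adult than at P5 (limma), shares near those of all genes, of which 33.7% were lower and 26.2% higher. Rptor, the scaffold of mTOR complex 1, had 17.6 ± 0.158 FPKM in Adult against 8.56 ± 0.774 FPKM at P5 (log2 change 0.97, adjusted p = 0.00111), and Pdcd4, an inhibitor of translation and S6 kinase target, had 84.7 ± 2.34 FPKM at P5 against 52.7 ± 6.09 FPKM at E18 (log2 change 0.68, adjusted p = 0.0228). Pdcd4 was called lower in Adult than at P5, at 44.2 ± 2.01 FPKM in Adult against 84.7 ± 2.34 FPKM at P5 (log2 change -0.92, limma adjusted p = 0.000825; SD, n = 2). The 1 lower at P5 was Eif4ebp2, a repressor of cap-dependent translation that mTOR phosphorylates, with 3.30 ± 0.714 FPKM at P5 against 6.94 ± 0.923 FPKM at E18 (log2 change -0.89, limma adjusted p = 0.0406). Of 10 tested p53 target genes, 0 were called lower and 1 higher at P5 than at E18, and 6 were called lower and 3 higher in Adult than at P5 (33.7% and 26.2% of all genes). Cdkn1a, a cell cycle inhibitor, was the 1 higher at P5 (20.2 ± 1.26 FPKM at P5 against 9.47 ± 1.08 FPKM at E18; log2 change 1.02, adjusted p = 0.0155) and had 0.768 ± 0.0889 FPKM in Adult (log2 change of Adult against P5 -3.58; SD, n = 2).

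Replicates of an age were close for most members. The log2 difference of E18 replicate 1 and replicate 2 had a median of 0.00 over the members, with 18 of 34 higher in replicate 1, although these libraries differed in progenitor and cell cycle markers. For Adult replicates 1 and 2, which differed in rod markers, the median was 0.14, with 28 of 34 higher in replicate 1. P5 libraries a and b had a median difference of 0.03.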

How the data were processed

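Isoform FPKM were deposited by the authors for 2 libraries of each of 3 ages. Reads were mapped with HISAT2 to mm10, and abundances came from Cufflinks and Cuffdiff, per the submitters' processing notes; versions and any scaling between libraries are not given in the sources used here. The deposited values use 0.0001 in place of 0, which was set to 0. The columns of the P5 libraries share a header, so they are called a and b. A further 9 columns of per-sample values were not used. Isoform lengths, also deposited by the authors in bases, describe the isoforms and weigh no test. Depth is unknown.

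Isoforms of a symbol were summed. The model was limma 3.58.1 in R 4.3.3, run on log2(FPKM + 1) (eBayes with trend; 3 residual degrees of freedom) over all 14390 genes, or 34941 isoforms, with a mean of at least 1 FPKM. The 6 libraries shared 1 estimate of the spread, with no replicate block. Tests were two-sided, with Benjamini-Hochberg adjustment over all tested features of each comparison and a call threshold of 0.05. Shares of all tested features at an unadjusted p were not counted. The pseudocount of 1 understates changes of low values. The fit was tested on simulated data. Positions and transcript types are from GENCODE of GRCm38, promoters from RefSeq.

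The members and gene lists were chosen with earlier results of these data known. 4 members enter every count and median but are not reported here by name. Full statistics are given otherwise, in each comparison, for the 6 members with the smallest p, the 3 with the log2 change nearest to 0, the 5 with the highest mean FPKM and the paralogs; for isoforms, for the 5 genes whose leading share differed most between age means; of each other list, for some of the 2 genes with the smallest p. Further genes are named for their role or for a call that was lost, after their values were seen. Alternatives were other pseudocounts (0.1 and 5), filters (none and 5 FPKM), scalings, samples, variance model, annotated isoforms only, and leaving out each library.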

Additional observations from a re-analysis of the deposited data

How the results depend on the processing

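All 34 members kept a negative log2 change between Adult and either younger age under every alternative run, and 33 or 34 were called with any library left out. Between P5 and E18, 0 to 15 of 34 were called with a library left out (22 with all 6), 11 after rescaling to TPM, 11 after quantile normalization and 12 without the variance trend; the cause was not tested. The median log2 change between P5 and E18 was -0.43 in TPM and -0.43 after quantile normalization (-0.56 to -0.54 with a library left out). Between Adult and P5 it was -2.03 in TPM, -0.95 on protein-coding genes and -0.93 after quantile normalization (-1.33 to -1.23 with a library left out). Between Adult and E18 it was -1.66 with a pseudocount of 5, -2.33 in TPM, -1.35 on protein-coding genes and -1.27 after quantile normalization (-1.84 to -1.66 with a library left out). The log2 change of Rps4l between P5 and E18 turned to 0.11 in TPM, 0.02 on protein-coding genes and, with a library left out, lay between -0.19 and 0.14 (-0.06 and 0.01 without E18 replicate 1 or 2, 0.14 and -0.19 without P5 library a or b), and that of Rps25 to 0.04 after quantile normalization. Of isoforms, 9 were called between P5 and E18, all lower, against 3 with a pseudocount of 0.1 and 2 with no filter. With a mean of at least 5 FPKM, where 74 were tested, 23 were called. The count was 4 in TPM, 3 on protein-coding genes and 2 after quantile normalization. It was 1 without the variance trend and 0 with only the libraries of these ages. Of all tested isoforms 288 were called lower, and 149, 144, 514, 307, 144, 205, 77 and 2 in these settings, in that order. Tested were 34941 isoforms, 50829 with no filter and 12562 with a mean of at least 5 FPKM. With only these ages 80 isoforms of the members were lower and 4 higher at an unadjusted p under 0.05 (limma). Between Adult and E18, 98 isoforms were called, 60 with a mean of at least 5 FPKM, where 74 were tested, and 64 to 97 with a library left out. With the replicate number as a block, 34 members (median -1.71) and 83 isoforms were called between Adult and E18. The differences of replicate 1 and 2 correlated at 0.018 between these ages over 14390 genes, so the numbers were not shown to pair the libraries, and the P5 columns carry none. FPKM hold no counts, so no depth limit can be given.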
